A study of Mus musculus with 9 samples.

Results

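The genes described here encode the proteins of the cytosolic ribosome. They were taken from the count table by symbol, as Rps or Rpl followed by a number and optional letters, together with Rplp0, Rplp1, Rplp2 and Rpsa. This pattern uses no measured values, but the family was chosen with earlier results of these data known. The pattern found 89 of the 50508 rows, 36 of the small subunit and 53 of the large subunit. Of these, 77 were core ribosomal proteins, and the rest were paralogs and copies with a like name. Fau and Rack1 also belong to the ribosome but lie outside the pattern.

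RNA was measured in TDC, in conventional DC (dendritic cells) and in conventional T cells, all sorted from the spleens of untreated, naive mice 8 weeks of age. All mice were homozygous for Zbtb46-GFP, a reporter in which green fluorescent protein marks use of Zbtb46, a transcription factor of conventional DC, so all 3 populations carry the same alleles. TDC is the submitters' name for the population in question, the other populations are its controls, and the sources used here do not say what the cells were gated on. Every population had 3 libraries, and spleens of 5 mice were pooled for replicate 1 and of 6 mice for replicates 2 and 3, so a replicate is a pool and p-values measure the spread between pools.

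The ribosome reads messenger RNA on its small subunit and joins amino acids on its large subunit. Its proteins are made in matched amounts, most from highly used genes without a TATA box whose messages begin with a C and a run of pyrimidines, the 5′ terminal oligopyrimidine (TOP) motif. TOP messages are translated under the control of the kinase complex mTORC1 and the RNA-binding protein LARP1. A few ribosomal proteins have paralogs that can stand in for them in some tissues.

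Promoters are shown for the 5 genes that fell furthest in TDC against T cells and for 5 genes whose part of the family's reads was higher in TDC, so that the start sites of both kinds can be compared. Each stretch runs from 40 bases before to 20 bases after the start annotated by RefSeq (GRCm38.p6), 5′ to 3′ on the gene's strand. Capitals mark a C followed by at least 5 pyrimidines.
Rps19, chr7:24884552-24884611, plus strand: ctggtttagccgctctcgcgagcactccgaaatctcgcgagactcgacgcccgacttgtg
Rpl12, chr2:32961672-32961731, plus strand: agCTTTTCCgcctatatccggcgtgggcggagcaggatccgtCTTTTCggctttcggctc
Rps27, chr3:90213629-90213688, minus strand: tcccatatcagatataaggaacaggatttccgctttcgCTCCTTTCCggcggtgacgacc
Rps18, chr17:33955646-33955705, minus strand: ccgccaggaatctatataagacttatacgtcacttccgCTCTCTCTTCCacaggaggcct
Rps7, chr12:28635934-28635993, minus strand: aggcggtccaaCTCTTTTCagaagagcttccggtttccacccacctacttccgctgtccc
Rps27l, chr9:66946046-66946105, plus strand: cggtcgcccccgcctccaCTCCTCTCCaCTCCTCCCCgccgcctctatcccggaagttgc
Rpl7l1, chr17:46782637-46782696, minus strand: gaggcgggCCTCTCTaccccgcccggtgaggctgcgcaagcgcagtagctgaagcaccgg
Rpl36al, chr12:69184048-69184107, minus strand: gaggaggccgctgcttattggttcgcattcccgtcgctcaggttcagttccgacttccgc
Rpl10, chrX:74270776-74270835, plus strand: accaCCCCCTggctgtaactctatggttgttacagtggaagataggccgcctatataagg
Rps9, chr7:3704001-3704060, plus strand: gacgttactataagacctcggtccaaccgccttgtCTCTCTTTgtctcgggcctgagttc

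Such pyrimidine runs were found in both sets. Rpl12, Rps27, Rps18 and Rps7 of the genes that fell held one within the bases shown, and so did Rps27l, Rpl7l1, Rpl10 and Rps9 of the others. Among all family members with an entry, 64 genes had 76 annotated starts. Within 40 bases either side of the start, on the gene's strand, 82.9% of these starts held a run of at least 5 pyrimidines after a C, against 49.7% of all 32851 starts in the table. A C followed by at least 4 pyrimidines stood exactly at the annotated start in 17.1% of the family's starts and in 2.51% of all starts. In the whole 300-base windows (250 bases before to 50 after), on either strand, the letters CCGGAAG, the core of sites for factors of the GABPA type, were found in 35.5% of the family's windows and in 8.86% of all. AAGATGG, a YY1-like sequence, was found in 15.8% against 6.34%, GGGCGG, an SP1-like sequence, in 60.5% against 35.7%, and TATAAA in 9.21% against 13.6%. Read on the other strand, the first of these begins with pyrimidines and can overlap a pyrimidine run. These matches describe the sequences and do not show that a factor binds.

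The libraries held 10986544 to 25676640 reads counted in genes, and 82 of the 89 members had enough reads to be tested. The 7 that did not were the core gene Rpl24 with 26 reads over all 9 libraries, the testis paralog Rpl10l with 3, the muscle paralog Rpl3l with 14, and Rps12l1, Rpl6l, Rps3a3 and Rps3a2 with 0, 9, 42 and 72, which the mouse annotation (GENCODE) lists as processed pseudogenes. Values below are read counts scaled to library size and TMM factors (CPM), as mean ± SD with n = 3 libraries per group unless single libraries are given. Folds, log2 fold changes with their standard errors and adjusted p-values are those of the quasi-likelihood test of edgeR, adjusted by Benjamini and Hochberg's method over all 14708 genes tested, and a gene is called where the adjusted p is under 0.05. Summed markers of macrophages (9 genes) lay at 38779 to 60143 CPM in TDC, 757 to 1027 CPM in the DC and 7.41 to 8.02 CPM in the T cells. Summed markers of conventional DC (8 genes) lay at 9279 to 17256 CPM in TDC, 45490 to 73748 CPM in the DC and 965 to 1525 CPM in the T cells. Summed T cell markers (7 genes) lay at 87.8 to 295 CPM in TDC, 37.9 to 87.9 CPM in the DC and 7530 to 9876 CPM in the T cells, and summed erythroid markers (7 genes) at 600 to 2079 CPM in TDC, 1.49 to 22.4 CPM in the DC and 0.633 to 1.44 CPM in the T cells. Zbtb46 itself had 7.54, 5.97 and 10.4 CPM in TDC, 46.4, 114 and 40.7 CPM in the DC and 1.62, 1.19 and 1.03 CPM in the T cells.

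Ribosomal protein genes took a smaller share of the reads in TDC than in either control, and in DC than in T cells. Their share of all counted reads was 0.941%, 0.461% and 0.679% in TDC replicates 1, 2 and 3. In DC it was 1.56%, 2.55% and 1.14%, and in T cells it was 3.70%, 4.66% and 3.78%. The 3 groups did not overlap. Their means were 0.694% ± 0.240 in TDC, 1.75% ± 0.724 in DC and 4.05% ± 0.530 in T cells, so that the T cell mean was 5.83 times the TDC mean and 2.32 times the DC mean, and the DC mean was 2.52 times the TDC mean. In bulk samples such as these, fewer cells of a type and less RNA per cell cannot be told apart. A share also depends on what else fills the library: 24.2% to 30.3% of the reads of a TDC library came from its 50 most abundant genes, against 21.3% to 31.1% in DC and 15.5% to 18.1% in T cells, and the macrophage markers given above moved with the same groups. Their part in the result was not tested.

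**Figure D1:**
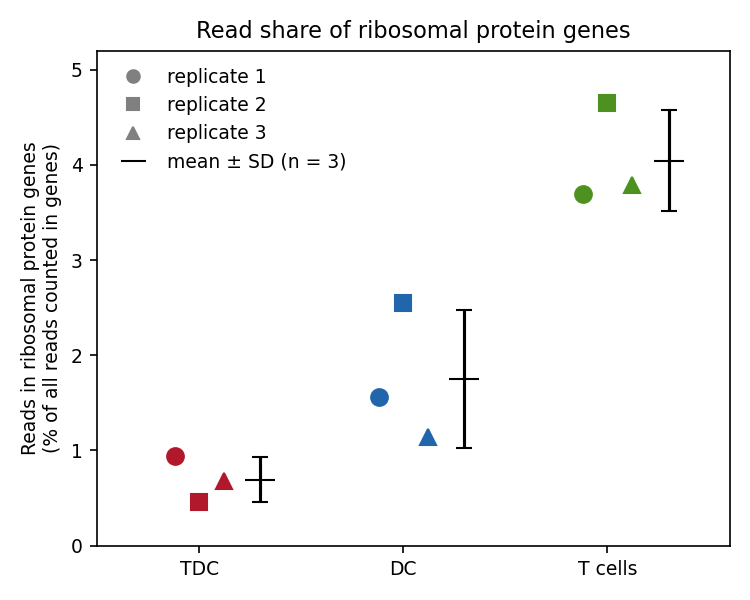
Share of all reads counted in genes that fell in the 89 ribosomal protein genes (y axis, percent) for each of the 9 libraries, by population (x axis), with the mean and SD of the 3 libraries in black. TDC lie between 0.461% and 0.941%, DC between 1.14% and 2.55% and T cells between 3.70% and 4.66%, with no overlap.

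Both subunits shared in the difference. Small-subunit genes took 0.285% ± 0.107 of the reads in TDC, 0.753% ± 0.342 in DC and 1.76% ± 0.225 in T cells. For large-subunit genes the shares were 0.409% ± 0.133 in TDC, 0.994% ± 0.382 in DC and 2.28% ± 0.314 in T cells. Within the family, the small subunit held 40.8% ± 1.25 of the reads in TDC, 42.6% ± 1.93 in DC and 43.6% ± 1.37 in T cells, with overlapping libraries. The balance between subunits therefore moved far less than the family's level.

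A few abundant genes took much of the family's reads, and their order was much alike in the 3 populations. The 8 members with the highest mean CPM over all libraries, among them Rpl4, Rplp0, Rps3, Rpl13, Rps14, Rps9 and Rpl3, held 29.9% to 36.5% of the family's reads in a library. These levels count transcript ends read by the 3′ protocol and are not divided by gene length. Rpl4, a protein of the large subunit's exit tunnel, had 744, 419 and 546 CPM in TDC, 1100, 1378 and 972 CPM in the DC, and 1741, 2271 and 1958 CPM in the T cells. Rplp0, which anchors the stalk that recruits elongation factors, had 580, 300 and 366 CPM in TDC, 718, 1278 and 573 CPM in the DC, and 1254, 1908 and 1360 CPM in the T cells. For both genes the groups with the lowest and highest levels, TDC and T cells, stood well apart. Across the 82 tested members, the mean levels of TDC and T cells had a Spearman rho of 0.863, those of TDC and DC 0.945 and those of DC and T cells 0.942, a description over genes of the same libraries.

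T cells and DC were sorted as controls for TDC, and the first comparison sets TDC against T cells. Of the 82 tested members, 67 fell in TDC against T cells, 1 rose (Rps4l) and 14 were not called. Over all genes tested in this comparison, 11.2% were called lower and 21.8% higher. The median log2 fold change of the tested members was -1.86, with a middle range from -2.21 to -1.58, against a median of 0.14 over all genes tested. The small subunit had 29 of 33 tested members lower and a median of -2.02, and the large subunit had 38 of 49 lower and a median of -1.80. In 75 members every TDC library lay below every T cell library, an arrangement found in 22.4% of all genes tested, and in 2 (Rps4l and Rps27l) every TDC library lay above them (29.6% of all genes). The call count rested partly on single libraries: 41 members were called lower without T cell replicate 2, 42 without TDC replicate 2, 43 without TDC replicate 3 and 39 without replicate 2 of all groups.

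**Figure D2:**
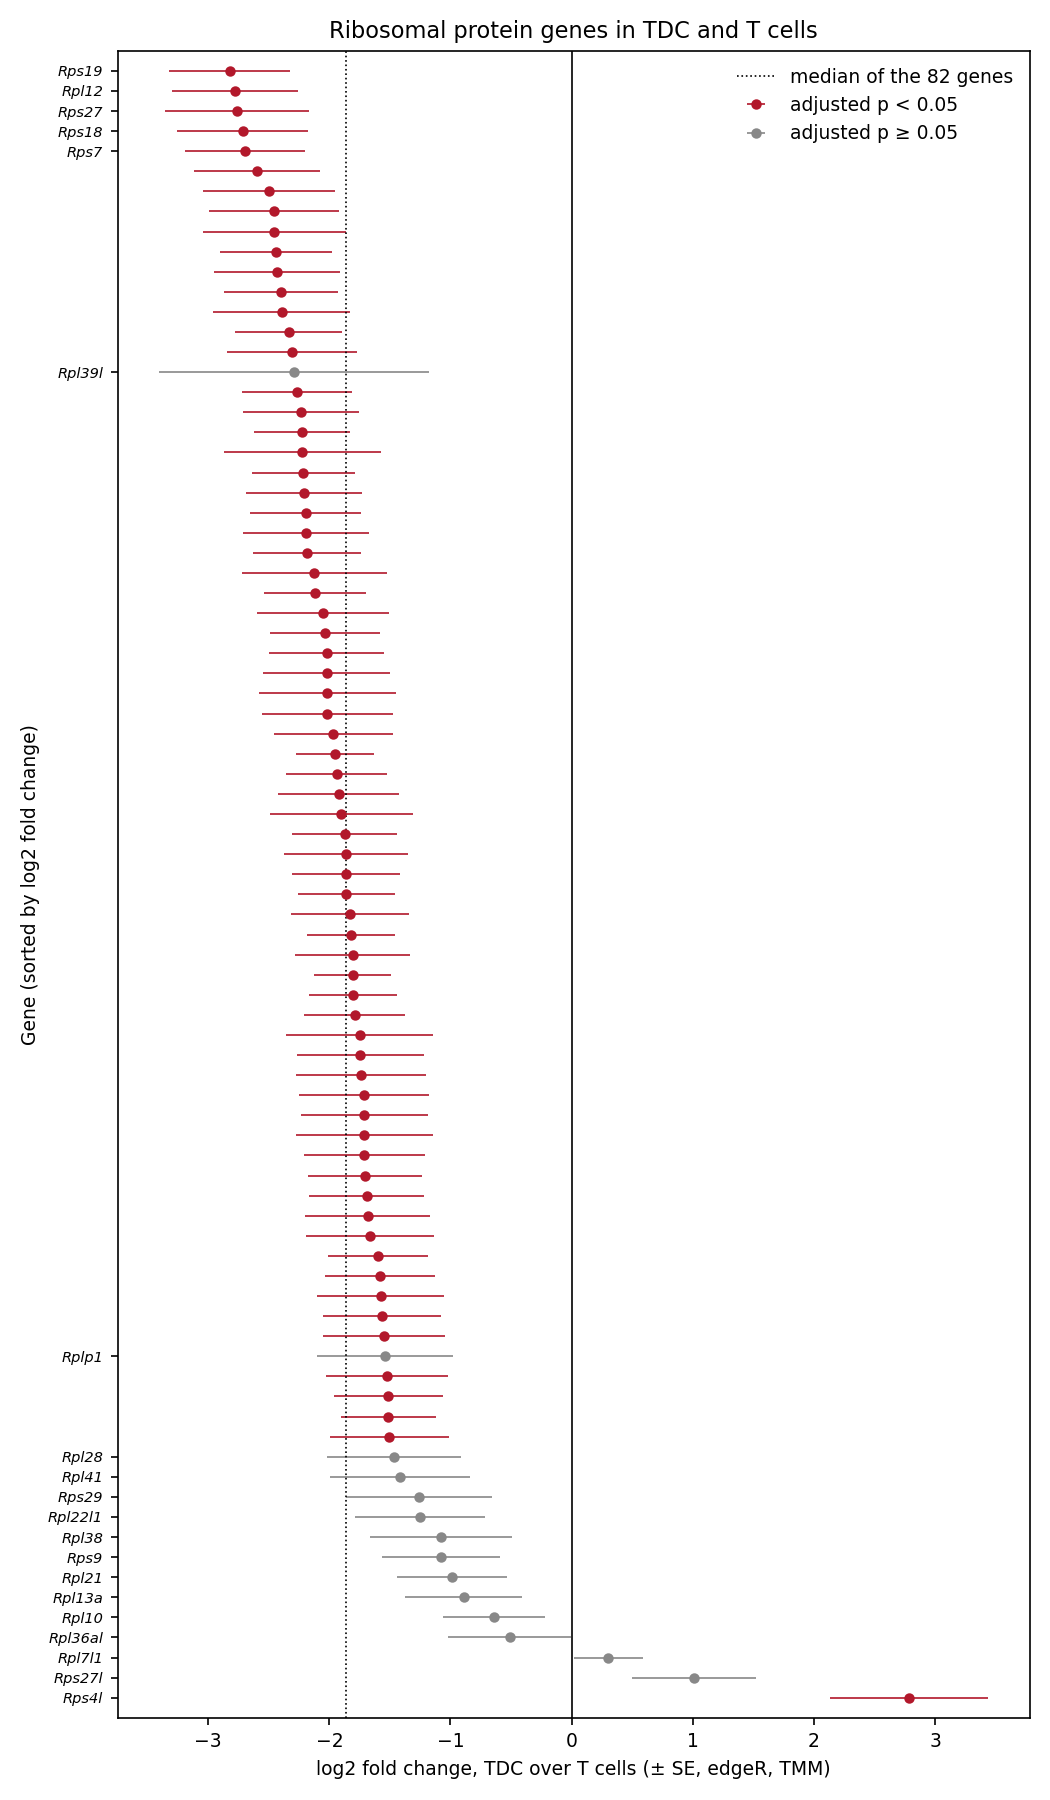
log2 fold change of TDC over T cells with its standard error (x axis) for each of the 82 tested ribosomal protein genes (y axis, sorted), in red where the adjusted p is under 0.05 and in grey otherwise, with names at the 5 lowest values, the uncalled genes and the gene called higher. The values run from -2.82 for Rps19 to 2.79 for Rps4l, with a median of -1.86 (dotted line).

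Among core proteins alone, 67 of 76 tested genes fell and none rose. The 5 furthest falls were those of Rps19, Rpl12, Rps27, Rps18 and Rps7. Rps19, a small-subunit protein needed to mature its ribosomal RNA and the gene most often mutated in human Diamond-Blackfan anaemia, had 186, 77.4 and 139 CPM in TDC, 317, 734 and 232 CPM in the DC, and 792, 1228 and 827 CPM in the T cells. Every TDC library lay below every DC library, and every DC library below every T cell library. Its level was 7.08-fold lower in TDC than in T cells (on the log2 scale -2.82 with an SE of 0.50, adjusted p = 0.00186).

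Rpl12, at the base of the large subunit's stalk, had 80.1, 31.8 and 42.3 CPM in TDC, 74.8, 163 and 49.2 CPM in the DC, and 271, 460 and 326 CPM in the T cells. TDC and DC overlapped, and both lay below T cells. The gene was 6.85-fold lower in TDC than in T cells (on the log2 scale -2.78 with an SE of 0.52, adjusted p = 0.0025). Rps27, a zinc-finger protein of the small subunit, averaged 90.5 ± 42.7 CPM in TDC, 259 ± 202 CPM in the DC and 613 ± 108 CPM in the T cells, and was 6.78-fold lower in TDC than in T cells (adjusted p = 0.00521). Rps18 averaged 81.8 ± 39.8 CPM in TDC and 537 ± 116 CPM in the T cells (6.56-fold lower, adjusted p = 0.00352). Rps7, which also binds the p53 regulator MDM2, averaged 70.6 ± 26.7 CPM in TDC and 457 ± 142 CPM in the T cells (6.48-fold lower, adjusted p = 0.00235).

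The 8 most abundant members followed the family, with the exception of Rps9. Rpl4 was 3.50-fold lower in TDC than in T cells (on the log2 scale -1.81 with an SE of 0.32, adjusted p = 0.00162), and Rplp0 was 3.63-fold lower (log2 fold change -1.86 with an SE of 0.40, adjusted p = 0.00526). Rps3, at the channel through which mRNA enters, averaged 337 ± 152 CPM in TDC and 1234 ± 226 CPM in the T cells (log2 fold change -1.87, adjusted p = 0.00782). Rpl13 averaged 243 ± 93.2 CPM in TDC and 1317 ± 401 CPM in the T cells, and Rps14 averaged 243 ± 142 CPM in TDC and 1280 ± 376 CPM in the T cells, both called lower with log2 fold changes of -2.44 and -2.39. Rpl3, close to the peptidyl transferase centre, averaged 254 ± 71.9 CPM in TDC and 984 ± 139 CPM in the T cells (-1.95, adjusted p = 0.00118). Rps9, which helps keep decoding accurate, had 667, 280 and 305 CPM in TDC and 765, 1159 and 720 CPM in the T cells, with every TDC library below every T cell library but a log2 fold change of -1.08 (SE 0.48, adjusted p = 0.115).

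Members with further known roles also fell, some of them close to the threshold. Rps6, the substrate of the S6 kinases downstream of mTORC1, had 157, 84.5 and 122 CPM in TDC and 497, 677 and 524 CPM in the T cells (log2 fold change -2.23 with an SE of 0.40, adjusted p = 0.00196). Rpsa, also known as the laminin receptor precursor, averaged 150 ± 70.5 CPM in TDC and 698 ± 178 CPM in the T cells (-2.22, adjusted p = 0.00286). Rpl5 and Rpl11, which bind MDM2 together with 5S ribosomal RNA when ribosome assembly is disturbed, had log2 fold changes of -1.60 (adjusted p = 0.0132) and -2.02 (adjusted p = 0.00843). The stalk proteins Rplp1 and Rplp2 had -1.54 (adjusted p = 0.0566) and -1.75 (adjusted p = 0.0485), so that only the second was called. The Rplp2 call was lost without any single TDC or T cell library other than TDC replicate 1, and without DC replicate 1, with adjusted p-values up to 0.129 over the single libraries left out.

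The 9 core genes that were not called in TDC against T cells were Rpl10, Rpl13a, Rpl21, Rpl28, Rpl38, Rpl41, Rplp1, Rps9 and Rps29. Their log2 fold changes were all negative, from -0.64 for Rpl10 to -1.54 for Rplp1. Rpl10, a late-joining large-subunit protein, had 296, 141 and 173 CPM in TDC, 307, 574 and 249 CPM in the DC, and 270, 438 and 245 CPM in the T cells (log2 fold change -0.64 with an SE of 0.42, adjusted p = 0.272 for TDC against T cells). Its TDC and T cell libraries overlapped, which among the core genes was otherwise so for Rpl38. All stretches of 50 bases in the last 300 bases of the Rpl10 transcript also occur in other annotated genes, so its count is uncertain. The same holds for Rps27, Rpl9 and Rpl36a. Of the 82 tested members, 42 shared over 50% of such stretches with other annotated genes, and 24 shared none. Rpl4, Rplp0, Rps3 and Rpl12 are among those that shared none. The check used the end of a single annotated transcript per gene, of 1538, 1358, 1908 and 1242 bases in these genes. Whether the reads came from that end was not tested, so sharing none does not show that a count is free of other genes' reads.

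Several paralogs stood apart from the core genes they resemble. Rps4l is a copy of Rps4x, a small-subunit protein, and GENCODE lists it as a transcribed processed pseudogene. It had 45.3, 23.4 and 23.5 CPM in TDC, 16.7, 54.2 and 15.7 CPM in the DC, and 3.66, 7.41 and 2.27 CPM in the T cells. The TDC and DC libraries overlapped, and all of them lay above the T cell libraries. Rps4l rose in TDC against T cells (log2 fold change 2.79 with an SE of 0.65, adjusted p = 0.00845) and in DC against T cells (log2 fold change 2.70 with an SE of 0.65, adjusted p = 0.0123), and its difference between TDC and DC was 0.09 (SE 0.61, adjusted p = 0.952). Without replicate 1 of all groups the adjusted p was 0.0983 in TDC against T cells and 0.077 in DC against T cells, and without T cell replicate 1 it was 0.0521 in DC against T cells. Rps4x averaged 102 ± 40.5 CPM in TDC, 218 ± 91.4 CPM in the DC and 391 ± 121 CPM in the T cells, and fell 3.84-fold in TDC against T cells (adjusted p = 0.00543). Rps4l thus made up 23.1% ± 1.25 of the reads of this pair in TDC, 10.8% ± 3.37 in DC and 1.08% ± 0.367 in T cells, with no overlap between populations. In Rps4l, 17.5% of the 50-base stretches at the transcript end also occur in other genes, and in Rps4x 62.2%. For the pairs in the next paragraphs this was 21.9% in Rps27l and 100% in Rps27, and 2.39% in Rpl7l1 and 74.1% in Rpl7. It was 70.1% in Rpl36al and 100% in Rpl36a. The parts of a pair's reads are uncertain to that extent.

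Rps27l, a paralog of Rps27 known as a target of p53, had 150, 63.5 and 64.8 CPM in TDC, 80.5, 209 and 70.7 CPM in the DC, and 43.7, 62.8 and 31.7 CPM in the T cells. All TDC and DC libraries lay above all T cell libraries, by a narrow margin, and the log2 fold change of TDC over T cells was 1.01 (SE 0.51, adjusted p = 0.159). Rps27l made up 50.2% ± 2.56 of the reads of Rps27l and Rps27 in TDC, 34.6% ± 9.97 in DC and 6.86% ± 1.16 in T cells.

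Rpl7l1, a paralog of Rpl7, had 149, 124 and 103 CPM in TDC, 131, 192 and 132 CPM in the DC, and 90.9, 107 and 107 CPM in the T cells, with overlap between TDC and T cells (log2 fold change 0.30 with an SE of 0.29, adjusted p = 0.453). Its share of the reads of the pair was 45.2% ± 7.94 in TDC, 34.1% ± 2.58 in DC and 15.7% ± 1.28 in T cells. Rpl7 itself averaged 158 ± 58.9 CPM in TDC, 298 ± 99.1 CPM in the DC and 551 ± 84.9 CPM in the T cells, 3.49-fold lower in TDC than in T cells (adjusted p = 0.00379). Rpl36al averaged 67.2 ± 33.4 CPM in TDC, 88.4 ± 60.0 CPM in the DC and 95.7 ± 29.8 CPM in the T cells (log2 fold change of TDC over T cells -0.51, adjusted p = 0.482). Rpl36a, which it resembles, fell in TDC against T cells (log2 fold change -2.06 with an SE of 0.54, adjusted p = 0.0152), a call lost without TDC replicate 2 (adjusted p = 0.0501). Rpl36al held 72.9% ± 0.961 of the pair's reads in TDC, 68.5% ± 4.18 in DC and 47.3% ± 3.12 in T cells.

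Rpl22 and Rpl22l1 behaved unlike the pairs above. Rpl22, without which αβ T cell development is arrested in mice, had 64.0, 29.6 and 31.0 CPM in TDC, 74.0, 169 and 47.9 CPM in the DC, and 102, 160 and 102 CPM in the T cells (log2 fold change of TDC over T cells -1.55, SE 0.50, adjusted p = 0.0373). That call was lost without TDC replicate 2, TDC replicate 3, DC replicate 1 or any T cell library, with adjusted p-values of up to 0.121. Rpl22l1, its paralog, had 47.7, 20.3 and 29.8 CPM in TDC and 83.3, 92.7 and 56.0 CPM in the T cells (log2 fold change -1.25 with an SE of 0.54, adjusted p = 0.1). Rpl22l1 held 44.1% ± 4.36 of the pair's reads in TDC, 37.4% ± 2.85 in DC and 39.1% ± 5.24 in T cells, and the populations overlapped. Rpl39l averaged 0.345 ± 0.323 CPM in TDC, 0.605 ± 0.227 CPM in the DC and 1.68 ± 1.17 CPM in the T cells, the lowest level of any tested member. Rpl39, which it resembles, fell 3.50-fold in TDC against T cells (adjusted p = 0.0144).

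**Figure D3:**
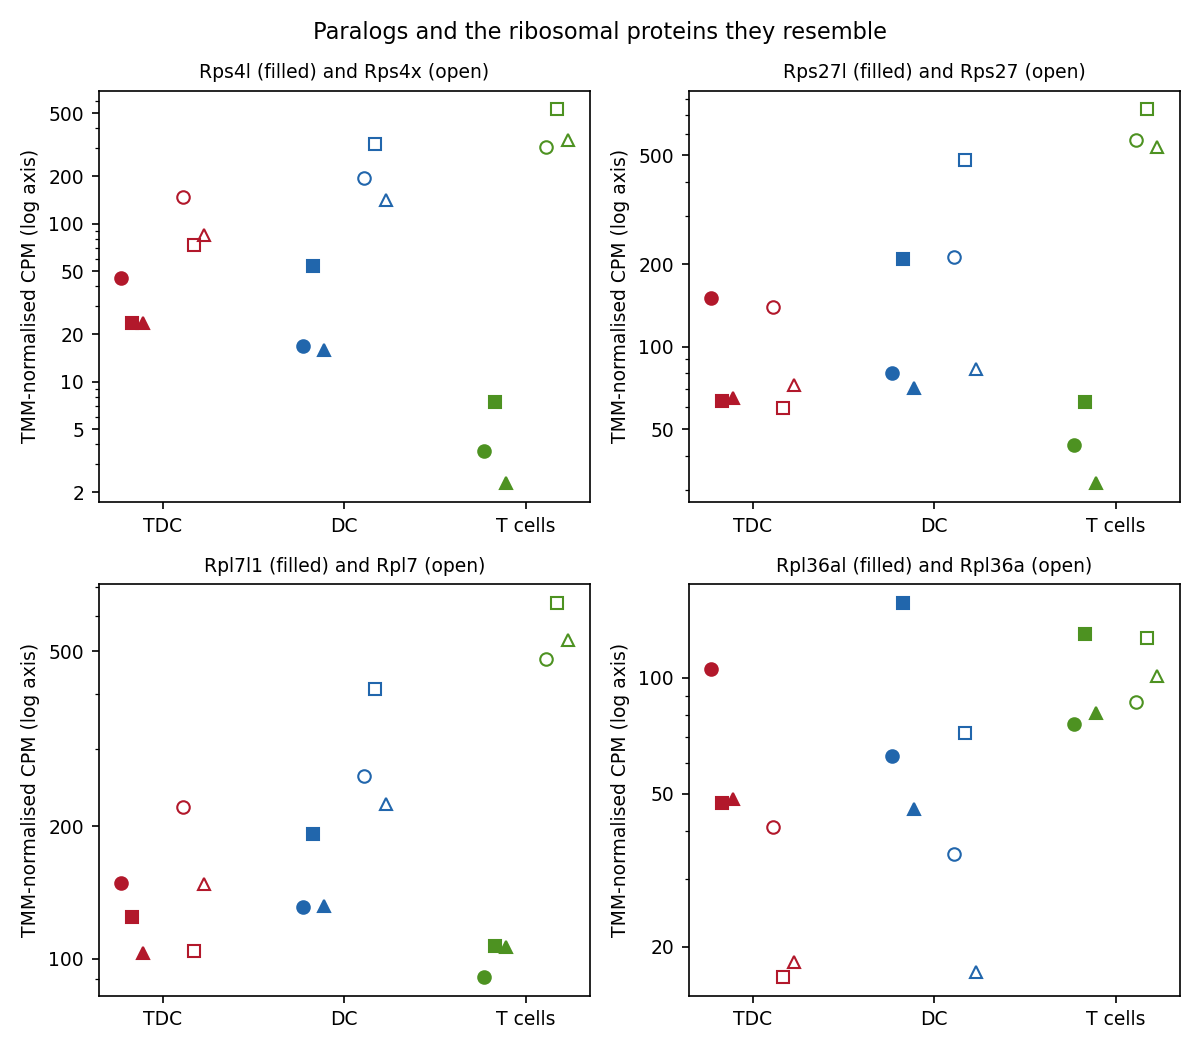
TMM-normalised CPM (log axis) of 4 paralogs (filled) and the core genes they resemble (open) in TDC, DC and T cells, with a circle, a square and a triangle for replicates 1, 2 and 3. Rps4l reaches 23.4 to 45.3 CPM in TDC and 2.27 to 7.41 CPM in the T cells, while Rps4x is lower in TDC (mean 102 CPM) than in T cells (mean 391 CPM).

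To separate a member's own change from that of the family, each library was also scaled to its summed ribosomal protein reads. On that scale, in TDC against T cells, 7 members were called higher within the family and 3 lower, where 60.0% of all genes tested were called higher and 2.99% lower. The adjustment ran over all genes tested. With so many of them called, an adjusted p under 0.05 was easier for a member to reach than on the first scale. The members higher within the family were Rps4l (log2 4.79), Rps27l (2.92), Rpl7l1 (2.31), Rpl36al (1.41), Rpl10 (1.31), Rpl21 (0.95) and Rps9 (0.83). The members lower within the family were Rps19 (log2 -0.88), Rpl12 (-0.87) and Rps18 (-0.82), and the adjusted p for Rps27 was 0.0513. The median member stood at 0.08. In DC against T cells, Rps4l (3.54), Rps27l (2.23), Rpl7l1 (1.58) and Rpl10 (1.18) were higher within the family and Rpl12 lower (-1.05), where 23.0% of all genes were called higher and 4.43% lower. In TDC against DC no member was called in edgeR's test on this scale, though the unadjusted p was under 0.05 in 3 (Rpl21, Rpl38 and Rps4l), where 18.1% of all genes were called higher and 0.877% lower. The comparisons with T cells share the T cell libraries.

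Between TDC and DC, the family's values were lower in TDC, but few single genes passed the test. In simulated counts of the same spread, the test recovered 0 of 64 genes changed 2-fold in this comparison. Only few of the 14708 genes were changed in that simulation, drawn at any level. It therefore cannot say how often a changed member would be called in these data. Of the 82 tested members, 4 fell in TDC against DC, among them Rps19, Rps6 and Rpl3, and none rose in edgeR's, DESeq2's or limma-voom's test, with 0 rising at an unadjusted p under 0.05. Over all genes tested, 4.60% were called lower and 9.55% higher, so that 4 members is a share near the background. The log2 fold change was negative in 81 members, with a median of -1.0 against 0.01 over all genes tested. The median of the members was -0.58 without DC replicate 2, -1.55 without replicate 1 of all groups and -0.36 without replicate 2 of all groups. In 11 members every TDC library lay below every DC library (14.8% of all genes tested), among them Rpl4, Rpl13, Rpl7 and Rpsa.

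Rps19 was 3.19-fold lower in TDC than in DC (on the log2 scale -1.67 with an SE of 0.48, adjusted p = 0.0429). Rps6 had the 157, 84.5 and 122 CPM in TDC given above and 277, 453 and 176 CPM in the DC (log2 fold change -1.32 with an SE of 0.39, adjusted p = 0.0469). Rpl3 had 327, 183 and 253 CPM in TDC and 499, 669 and 421 CPM in the DC (log2 fold change -1.06 with an SE of 0.32, adjusted p = 0.049). In each of these 3 genes the TDC and DC libraries did not overlap, and each call lay close to the threshold. With the replicate number as a block, the 3 calls were lost (adjusted p = 0.102, 0.102 and 0.103 in edgeR's test). Leaving out single libraries gave counts from 0 members (without TDC replicate 2 or 3, DC replicate 1 or 2, or any T cell library) to 12 without TDC replicate 1 and 21 without DC replicate 3, and a fit of TDC and DC alone called 0.

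DC differed from T cells in the same direction for most members, again with few calls. In DC against T cells 2 members fell (Rpl12 and Rps2) and 1 rose (Rps4l), where 8.41% of all genes tested were called lower and 15.4% higher. The median of the tested members was -0.89 against 0.08 over all genes, and 78 members had a negative log2 fold change. Rpl12 was 3.68-fold lower in DC than in T cells (on the log2 scale -1.88 with an SE of 0.50, adjusted p = 0.02). Rps2, a small-subunit protein of the mRNA entry channel, had 221, 299 and 165 CPM in the DC and 419, 561 and 482 CPM in the T cells (log2 fold change -1.09 with an SE of 0.36, adjusted p = 0.0489), and averaged 138 ± 55.5 CPM in TDC. In 27 members every DC library lay below every T cell library (17.9% of all genes tested), and in 3 (Rps4l, Rps27l and Rpl7l1) every DC library lay above them (21.8% of all genes).

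The DC count turned on DC replicate 2, in which the family was highest. Without that library 48 members were called lower in DC against T cells, without DC replicate 1 or 3 or T cell replicate 2 none was, and it was 5 without TDC replicate 1 and 1 without TDC replicate 3, T cell replicate 1 or T cell replicate 3. The median of the members in DC against T cells was -1.37 without DC replicate 2, and the family's mean share in DC was 1.35%. The shares of the 3 DC libraries, 1.56%, 2.55% and 1.14%, are the widest spread of the populations.

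Libraries of one population differed with transcript length, and the family's share differed with it. For each library, the deviation of every gene from its population's mean was correlated with annotated transcript length over 14316 genes, and a negative rho means relatively more reads from short transcripts. The values for replicates 1, 2 and 3 were -0.52, 0.51 and 0.21 in TDC, 0.27, -0.47 and 0.34 in DC, and 0.20, -0.29 and 0.11 in T cells. In each population the library with the lowest rho (TDC replicate 1, DC replicate 2, T cell replicate 2) had the highest family share, and the library with the highest rho (TDC replicate 2, DC replicate 3, T cell replicate 1) had the lowest. Ribosomal protein transcripts are short: 57 of the 82 tested members were under 1000 bases, with a median of 795 bases. Inside the family, the rho of the relative level with length was -0.51 in DC replicate 2 and 0.49 in DC replicate 3. These are descriptions over genes of the same libraries, and the source of the trend was not tested.

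**Figure D4:**
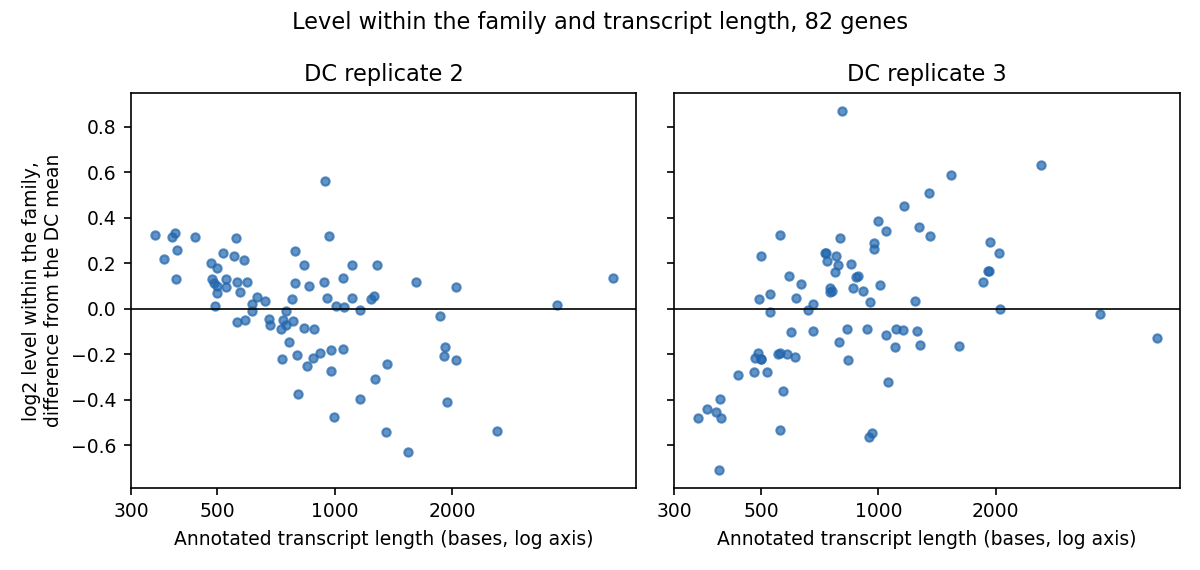
log2 level of each of the 82 tested ribosomal protein genes within the family, as its difference from the mean of the 3 DC libraries (y axis), against annotated transcript length in bases (x axis, log), in DC replicates 2 and 3. Short members stand higher in replicate 2 (rho -0.51) and lower in replicate 3 (rho 0.49).

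Short transcripts in general had negative medians too. Over the 2017 tested genes under 1000 bases, the median log2 fold change was -0.60 in TDC against T cells, -0.15 in TDC against DC and -0.31 in DC against T cells, and 18.3%, 3.07% and 12.4% of them were called lower. The medians of the family, -1.86, -1.0 and -0.89, were further from 0 in each comparison. When the trend with length was taken out of every library with an offset per gene, an analysis added after the trend had been seen, 73 members were called lower and 2 higher in TDC against T cells, including all 67 of the first analysis. The median member then stood at -1.61 against -0.06 over all genes, with 17.2% of all genes called lower and 22.0% higher. In TDC against DC 51 members were then called lower and none higher (8.50% and 11.9% of all genes, median member -0.91), and in DC against T cells 45 lower (12.6% of all genes, median member -0.72) and 2 higher (16.7% of all genes), Rps4l and Rps27l.

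Other genes of translation were examined to place the family. Among 25 messages of the TOP class other than ribosomal proteins, such as elongation factors, 14 fell in TDC against T cells (56%, against 11.2% of all genes) and none rose (median log2 fold change -1.40). Eef1a1, the elongation factor that brings aminoacyl-tRNA to the ribosome, averaged 989 ± 179 CPM in TDC, 1694 ± 205 CPM in the DC and 2646 ± 238 CPM in the T cells (log2 fold change -1.42 with an SE of 0.28, adjusted p = 0.00324). Npm1, a nucleolar chaperone counted in this list and the next, averaged 142 ± 34.0 CPM in TDC, 245 ± 84.3 CPM in the DC and 532 ± 78.6 CPM in the T cells (-1.91, adjusted p = 0.0018). Snhg8, a host gene of small nucleolar RNA, averaged 5.96 ± 2.46 CPM in TDC and 59.5 ± 10.5 CPM in the T cells (-3.32, adjusted p = 0.00298). In TDC against DC 3 of the 25 fell (12%, against 4.60% of all genes) and none rose. In DC against T cells 2 fell (8%) and 1 rose (4%), shares near or below the 8.41% and 15.4% of all genes.

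Genes that build ribosomes had medians closer to 0. Of 47 tested genes of nucleolar assembly, 15 fell in TDC against T cells (31.9%, against 11.2% of all genes) and none rose (median -0.79). Mdn1, a large ATPase that remodels the pre-large subunit, averaged 17.1 ± 2.95 CPM in TDC, 20.4 ± 0.327 CPM in the DC and 57.1 ± 3.29 CPM in the T cells, and Dkc1, which modifies ribosomal RNA, averaged 50.3 ± 6.37 CPM in TDC, 46.5 ± 7.45 CPM in the DC and 139 ± 20.2 CPM in the T cells. Both fell in TDC against T cells (-1.74, adjusted p = 0.00179, and -1.47, adjusted p = 0.00285). In this list 10 genes fell in DC against T cells (21.3%, against 8.41% of all genes) and 1 rose. In TDC against DC 1 fell (2.13%, against 4.60% of all genes), and the median was -0.19. Among 30 genes of RNA polymerases I and III, 6 fell in TDC against T cells (20%) and none rose (median -0.62), with Maf1, Polr1e and Polr1c at log2 fold changes of -1.16, -1.46 and -1.38, each call lost when some replicate numbers were left out (adjusted p of up to 0.102). Maf1, which fell with them, is known as a repressor of RNA polymerase III.

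In TDC against T cells, initiation factors and regulators had shares of calls near or below those of all genes. Of 27 initiation factors outside the TOP list, 4 fell in TDC against T cells (14.8%, against 11.2% of all genes), among them Eif3i (-1.64) and Eif2b4 (-1.43), and 1 rose (3.70%, against 21.8%), Eif4g3, with 80.8, 272 and 136 CPM in TDC and 49.4, 53.3 and 52.2 CPM in the T cells (log2 fold change 1.66 with an SE of 0.46, adjusted p = 0.0196). The Eif4g3 call was lost without TDC replicate 2 or any T cell library (adjusted p of up to 0.116 over all fits that lost it). Of 27 tested regulators around mTORC1, MYC and TOP messages, 5 rose (18.5%, against 21.8% of all genes) and 2 fell (7.41%, against 11.2%). Their median was 0.38, against 0.14 over all genes tested, and 0.02 with the length offsets. The genes named next had the smallest p of this list and all rose, and the 2 that fell are not named. Sesn2, a stress-induced inhibitor of mTORC1, averaged 78.9 ± 44.6 CPM in TDC, 78.5 ± 35.7 CPM in the DC and 3.37 ± 0.738 CPM in the T cells (log2 fold change 4.55 with an SE of 0.57, adjusted p = 0.000223). Eif4ebp1, which holds back cap-dependent initiation unless mTORC1 phosphorylates it, averaged 84.6 ± 34.9 CPM in TDC, 44.2 ± 21.8 CPM in the DC and 13.7 ± 3.74 CPM in the T cells (log2 fold change 2.63 with an SE of 0.46, adjusted p = 0.00178). Mycl, a MYC family factor used by DC, averaged 17.4 ± 15.1 CPM in TDC and 161 ± 85.9 CPM in the DC and had 0 reads in T cells. With 3 reads over the group as the floor, TDC were at least 312-fold higher than T cells, and at least 159-fold higher without TDC replicate 3. In TDC against DC, 3 of the 27 regulators rose (11.1%, against 9.55% of all genes) and 3 fell (11.1%, against 4.60%). Mycl was among those that fell (log2 fold change -3.21 with an SE of 0.73, adjusted p = 0.022).

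**Figure D5:**
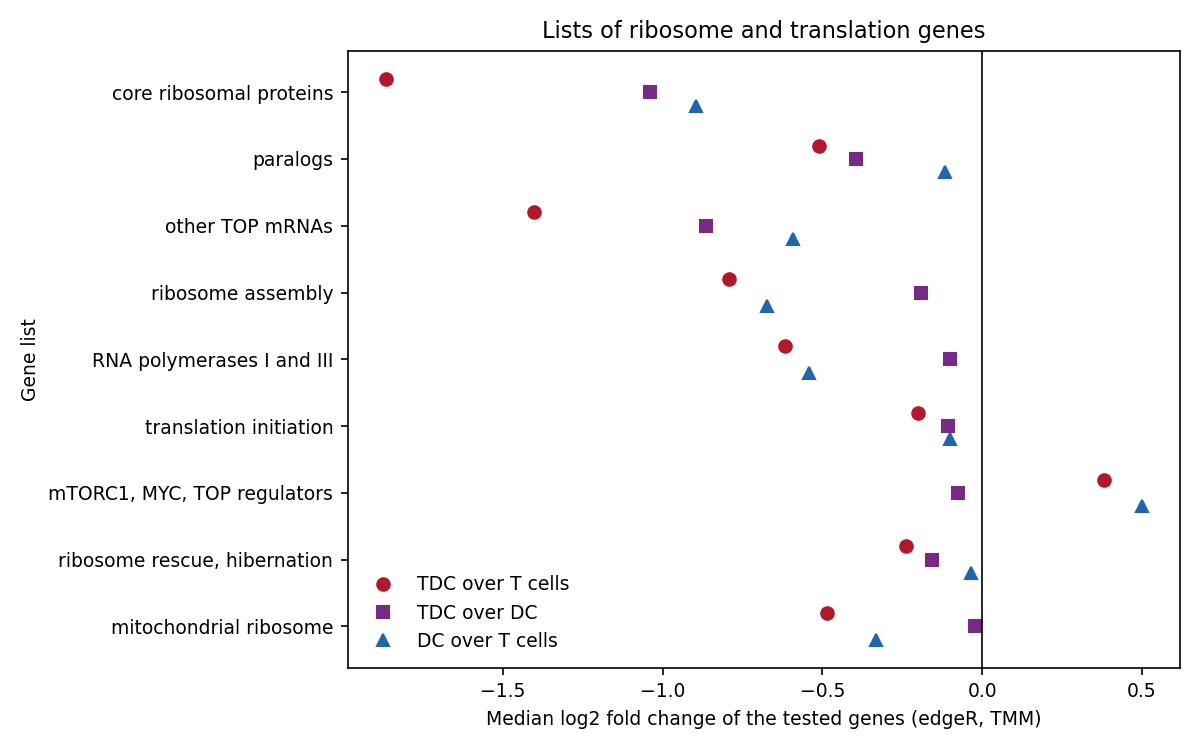
Median log2 fold change (x axis) of the tested genes of 9 gene lists (y axis) in TDC over T cells (red circles), TDC over DC (purple squares) and DC over T cells (blue triangles). Core ribosomal proteins stand at -1.87 in TDC over T cells and the other TOP messages at -1.40, while the mTORC1, MYC and TOP regulators stand at 0.38. The median over all genes tested in TDC over T cells was 0.14.

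Further lists gave smaller numbers of calls. Of 16 tested genes of ribosome rescue, quality control and hibernation, 1 fell in TDC against T cells (6.25% of the list; Serbp1, -1.08, adjusted p = 0.0134, and 0.0596 with the length offsets) and none rose. The S6 kinases and their relatives share a symbol prefix with the family but are not ribosomal proteins. Of 8 tested, 1 rose (12.5%, against 21.8% of all genes) and none fell. This was Rps6kc1, which averaged 105 ± 53.9 CPM in TDC, 21.1 ± 11.2 CPM in the DC and 2.52 ± 2.22 CPM in the T cells (log2 fold change 5.37 with an SE of 0.88, adjusted p = 0.00117). Of the 77 tested proteins of the mitochondrial ribosome, 5 fell in TDC against T cells, among them Mrps35, Mrpl58 and Mrps5, and none rose (median -0.49). This is 6.49% of the list, a smaller share than the 11.2% of all genes. Their share of reads was 0.269% ± 0.0797 in TDC, 0.345% ± 0.127 in DC and 0.577% ± 0.128 in T cells, a ratio of the T cell to the TDC mean of 2.15 where the cytosolic family had 5.83. The 12 tested transcripts of the mitochondrial genome had a median of -0.90 in TDC against T cells, and none of them was called in either direction. Of the ribosomal genes outside the symbol pattern, Rack1 fell in TDC against T cells (log2 fold change -1.43 with an SE of 0.39, adjusted p = 0.0174), while Fau had -1.33 (adjusted p = 0.0716).

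Rows named as ribosomal protein pseudogenes held few reads. The 278 such rows took 0.00239% ± 0.000686 of the reads in TDC, 0.00588% ± 0.00268 in DC and 0.0133% ± 0.0013 in T cells. The T cell mean was 5.56 times the TDC mean, close to the 5.83 of the family. Of the 30 that were tested, 6 fell in TDC against T cells (20%, against 11.2% of all genes) and none rose. Their sequences are near-identical to the parent genes, so reads of one can be counted in the other.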

How the data were processed

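RNA of sorted TDC, DC and T cells (3 pools of mice each, 9 libraries) was sequenced with the Lexogen QuantSeq stranded kit, a 3′ protocol, per the labels' protocols. Per gene and library, the values deposited are whole read counts without normalisation. The submitters' processing notes name FastQC, MultiQC, Trimmomatic, STAR and featureCounts without versions, and the build hg38 although the samples and symbols are mouse. The sources used here do not give the annotation and strand setting, so overlapping and near-identical genes remain uncertain. Columns were matched to samples by the labels' descriptions.

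The counts as deposited were tested with edgeR 4.0.16 in R 4.3.3. Genes passed filterByExpr (minimum count 10, minimum total 15), which left 14708 of 50508, and TMM factors and a robust quasi-likelihood fit of all 9 libraries (6 residual degrees of freedom, common biological coefficient of variation 0.588) were used, with Benjamini-Hochberg adjustment at 0.05. The same code was tested on simulated counts. A single read was worth 0.0389 to 0.091 CPM before TMM scaling. Floors cover counting error only. Replicate libraries differed beyond sampling noise (chi-square per degree of freedom 62.3 to 250), so none was merged. Transcript lengths and types were taken from GENCODE and promoters from RefSeq (GRCm38.p6).

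The members, gene lists and the rule for named genes were chosen with earlier results of these data known. The rule took the 5 called members furthest in each direction per comparison, members called against the majority, the 8 most abundant, the paralog pairs, 9 members of known roles, and the 3 genes of smallest p per further list. Genes of a count of 5 or fewer, the members called after family scaling and the uncalled core genes were named after their values were seen. No sum over members was given a p-value. The labels do not say that same-numbered libraries of different populations share mice, so the numbers were not taken as pairs. Correlations of their deviations lay from -0.53 to 0.36, and that of TDC replicate 1 with DC replicate 2 was 0.55. The deviations also differed with transcript length, so they cannot decide whether the numbers are pairs. Alternatives were DESeq2 size factors, upper-quartile factors, library size only, TMM without the members, scaling to the family's reads, no filter and a filter of 10 CPM, DESeq2 1.42.0, limma-voom (limma 3.58.1), fits of the compared groups alone, a block for the replicate number, and fits without each library or replicate number. Offsets that remove each library's trend with transcript length (lowess) were added after seeing the data. All 9 libraries were used. Some genes taken in by the rule for named genes are not reported here.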

Additional observations from a re-analysis of the deposited data

How the results depend on the processing

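The lower count of TDC against T cells (67 of 82) stayed within 1.5 times under other factors, filters, tests and the fit of those groups alone, and lay between 39 and 73 when a library or a replicate number was left out. The higher count lay between 0 and 1 there and was 2 with the length offsets. In TDC against DC, the lower count of 4 was 39 with library size only, 8 with TMM factors without the members, 51 with the length offsets, 18 with no filter, 8 with the 10 CPM filter, 18 with DESeq2, 10 with limma-voom, 0 in the fit of those groups alone, and 0 to 21 with libraries left out. In DC against T cells, the lower count of 2 was 42 with library size only, 45 with the length offsets, 9 with no filter, 1 with the 10 CPM filter, 12 with DESeq2, 20 with limma-voom and 0 to 48 with libraries left out, and the higher count of 1 was 2 with the length offsets, no filter or DESeq2, and 0 to 2 with libraries left out. Library size only also moved the median of all genes to -0.47, -0.27 and -0.21 in TDC against T cells, TDC against DC and DC against T cells, and that of the members to -2.48, -1.27 and -1.23. With the replicate number as a block, the lower counts were 66, 0 and 1 in those comparisons, and the calls of Rps19, Rps6 and Rpl3 in TDC against DC and of Rps2 in DC against T cells were lost (adjusted p = 0.102, 0.102, 0.103 and 0.0778 in edgeR's test). Libraries of one number share a label prefix whose meaning is not given, so pairing was not assumed. Their deviations had correlations from -0.53 to 0.36, which cannot decide it.

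Scaling to the family's own reads asks another question and gave 3 lower and 7 higher in TDC against T cells, 0 lower in TDC against DC, and 1 lower and 4 higher in DC against T cells. By construction it set the median member near 0 (0.0792 in TDC against T cells and 0.039 in TDC against DC), and it turned the sign of 14 named members in TDC against T cells that were called on either scale, to 0.00905 for Rpl3, 0.10 for Rps2, 0.15 for Rpl4, 0.10 for Rplp0, 0.0327 for Rps3, 0.83 for Rps9, 0.016 for Rps4x, 0.12 for Rpl7, 0.38 for Rpl22, 1.41 for Rpl36al, 0.13 for Rpl39, 1.31 for Rpl10, 0.11 for Rplp2 and 0.31 for Rpl5, and of 2 that were called on neither, to 0.66 for Rpl22l1 and 0.31 for Rplp1. No other alternative turned a called direction among the named genes.

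The mean read share was 0.570% to 0.810% in TDC, 1.35% to 2.05% in DC and 3.74% to 4.22% in T cells with a library left out, and 3.47% in T cells without Rpl4, Rplp0 and Rps3. The lists' named genes that lost their call in TDC against T cells when a library was left out were Rack1, Eif4g3, Serbp1, Mrps35, Mrpl58 and Mrps5. When a replicate number was left out, Dkc1, Eif2b4, Eif3i, Maf1, Polr1c, Polr1e and the members Rpl5 and Rpl39 lost theirs too (adjusted p of 0.0509 to 0.102), and the cause was not tested. Few reads limit what can be said of Rpl39l, Rpl24 and the pseudogene rows, and 81.3% of the 50-base stretches at the Rpl24 transcript end also occur in other genes.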
